A study of Homo sapiens with 30 samples.

Results

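Vesicle release genes encode the proteins that store, dock, fuse and recover secretory vesicles. The account below covers 41 such genes in 3 human neuroblastoma cell lines, SK-N-BE(2)c, NGP and IMR32, transfected with antisense oligonucleotides (ASOs). The members were taken from a list of symbols that was chosen with earlier results of these data known. All 41 were found in the 3 deposited tables, which hold 62710 genes for IMR32 and 57905 genes each for NGP and SK-N-BE(2)c. A member was tested in a line when its mean normalized count over that line's libraries was at least 10, which left 34 members of 13556 genes in SK-N-BE(2)c, 37 of 14440 in NGP and 37 of 17309 in IMR32, with 32 members tested in all 3 lines.

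Neurons and neuroendocrine cells release their signals by calcium-triggered exocytosis. Small synaptic vesicles are filled, tethered by synapsins and RAB3 proteins, held at the active zone by scaffolds such as piccolo and bassoon, primed by the UNC13 and CAPS proteins, and fused by the SNARE proteins syntaxin, SNAP-25 and synaptobrevin once a synaptotagmin binds calcium. Dense-core granules use much of the same machinery to release peptides and amines, and carry granins such as secretogranin II and VGF as cargo. Neuroblastoma arises from the sympathoadrenal lineage, whose chromaffin cells and neurons depend on regulated secretion.

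NESPR is a long non-coding RNA described as specific to the adrenergic state of neuroblastoma. Every group received 100 nM of an ASO by lipofection, so the controls were transfected as well. In IMR32 the groups were ASO1, ASO2 (both directed at NESPR) and the negative control ASO, called NCA, with 4 libraries each. In SK-N-BE(2)c and in NGP the groups were ASO2, ASO10 (also directed at NESPR) and NCA, with 3 libraries each, giving 30 libraries in 9 groups. Each line is an established culture, so a line is a single genetic background. The time between transfection and harvest and the number of separate cultures are not stated in the labels, so p-values measure only the spread between these libraries, which may be technical. Reads counted on genes per library ranged from 9393587 to 13932379 (IMR32), from 11591178 to 13795561 (NGP) and from 11497829 to 15060356 (SK-N-BE(2)c).

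Levels are given as the deposited normalized counts, which are reads already divided by a size factor per library. Differences are log2 fold changes of normalized count + 1, a scale on which changes of low genes come out too small, with their standard error (SE) and with p-values from limma adjusted by Benjamini-Hochberg over every gene tested in the line. A member is said to have risen or fallen when its adjusted p was under 0.05. The 2 ASOs of a line were compared with the same NCA libraries, so their fold changes are not independent of each other. In bulk RNA, fewer cells of a type and less RNA per cell cannot be told apart.

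Among NCA libraries, granule cargo, synaptotagmins and complexin 2 led the members when normalized counts were divided by exon length. In IMR32 the highest levels per kb of exon were 790.5 for SCG3, 786.9 for SYT1 and 500.7 for CPLX2. In NGP they were 1171 for SCG2, 878.8 for SYT11 and 774 for SCG3. SK-N-BE(2)c was led by SCG2 at 2162, VGF at 1654 and CPLX2 at 1061. The NGP and SK-N-BE(2)c tables share one scale, and between their NCA libraries 11 members were higher in NGP and 19 were lower of 34 tested, where 36.9% and 38.1% of all genes tested were called. AP3B2, the neuronal AP-3 subunit, was higher in NGP with a log2 difference of 1.76, and RAB3A, the main vesicle RAB3, with 1.58. SCG5, the 7B2 chaperone of a prohormone convertase, and VGF, a granin, were lower in NGP, with -2.61 and -1.97. IMR32 was scaled on its own, so its levels were kept apart from the rest.

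9 members missed the mean of 10 in at least 1 line and were not tested there. CADPS2 had at most 1 read in any library of any line. SV2C and SYN3 had no reads in SK-N-BE(2)c, where AMPH had at most 1, and SV2B had none in SK-N-BE(2)c and a mean of 0.825 in NGP. RIMS1 was at or under 1 read in every IMR32 library, and at a mean of 4.77 in SK-N-BE(2)c. SYNGR3 had means of 7.09 in SK-N-BE(2)c and 6.07 in NGP. Just outside the limit were SCG5 in IMR32 at 9.83, SYN3 in NGP at 8.79 and SYT5 in IMR32 at 7.6.

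More members fell than rose in each of the 6 comparisons with NCA. In IMR32, ASO1 had 3 higher and 18 lower of 37 tested members, where 13.6% of all genes tested rose and 14.4% fell, and ASO2 had 5 higher and 18 lower of 37, against 17.6% and 14.8% of all genes. In NGP, ASO2 had 8 higher and 19 lower of 37, against 30.6% and 28.1%, and ASO10 had 5 higher and 17 lower of 37, against 26.8% and 27.6%. In SK-N-BE(2)c, ASO2 had 7 higher and 19 lower of 34, against 33.6% and 33.4%, and ASO10 had 9 higher and 15 lower of 34, against 27.8% and 31.1%. The share of members that rose lay below the share of all genes that rose in every comparison, and the share that fell lay above it. With ASO10 in SK-N-BE(2)c the shares that rose were close, at 26.5% of members and 27.8% of all genes. The median member log2 fold change was -0.16 with ASO1 and -0.20 with ASO2 in IMR32, -0.32 with ASO2 and -0.17 with ASO10 in NGP, and -0.30 with ASO2 and -0.14 with ASO10 in SK-N-BE(2)c. Over all genes tested the medians lay between -0.03 and 0.01. RAB3B and VAMP2 were called in none of these 6 comparisons.

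**Figure D1:**
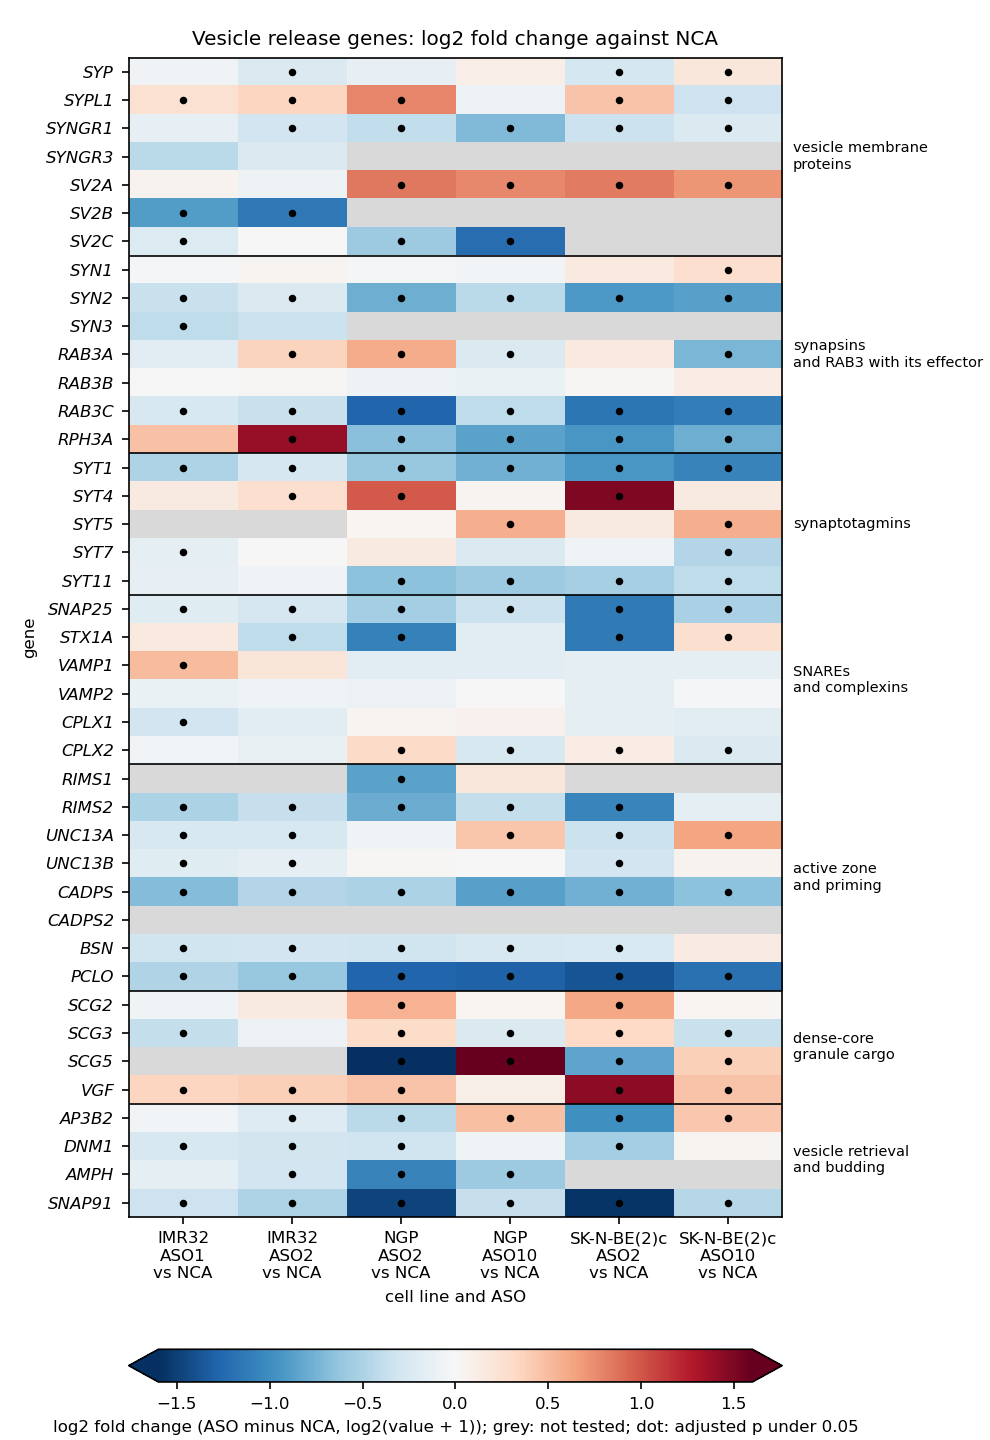
Log2 fold change against NCA for the 41 members (rows, grouped by role) in the 6 comparisons (columns), in blue where lower and red where higher with the colour scale ending at 1.6 either way, grey where the mean was under 10. A dot marks an adjusted p under 0.05, and PCLO, CADPS, SYT1, SYN2, SNAP91, RAB3C and SNAP25 carry a dot on the lower side in all 6 columns.

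Scaling bore on the calls over all genes, most of all for ASO2. The counts of members against NCA stayed within 1.5 times the reported count under the rescaling described here. When each library was rescaled to the same total, the median of all genes with ASO2 in SK-N-BE(2)c moved from -0.02 to -0.15, and the calls over all genes moved from 4555 higher and 4523 lower to 3505 higher and 5612 lower. The balance of calls also turned with ASO2 in NGP, from 4417 higher and 4060 lower to 3664 and 4693 (median from 0.01 to -0.06), and with ASO2 in IMR32, from 3051 and 2556 to 2648 and 3113 (median -0.03 after rescaling). With ASO1 in IMR32 it turned the other way, from 2354 and 2496 to 2788 and 2267 (median 0.02 after rescaling). With ASO10, lower calls were the more numerous before and after, at 3748 higher and 4107 lower after rescaling in NGP and 3535 and 4459 in SK-N-BE(2)c. Fold changes of ASO2 in SK-N-BE(2)c are best read against that shift.

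With ASO1 or ASO2, most active zone and priming genes fell, while ASO10 differed by line. With ASO1 and with ASO2 in IMR32, all 6 tested genes of this role fell (-0.41 and -0.34 at the median). Of all genes tested, 14.4% and 14.8% fell there. With ASO2, 6 of 6 fell in SK-N-BE(2)c and 5 of 7 in NGP, with none called higher. The shares of all genes that fell were 33.4% and 28.1%. With ASO10, 4 of 7 fell in NGP, against 27.6% of all genes, and 2 of 6 in SK-N-BE(2)c. The latter share lies near the 31.1% of all genes that fell in that comparison, and the median there was -0.05. UNC13A was the 1 member of this role that rose with ASO10 in each line.

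PCLO (ENSG00000186472) encodes piccolo, a giant scaffold of the presynaptic active zone. In IMR32, PCLO was at 760.2, 863, 962 and 836 with ASO1, 729, 787, 849 and 789.6 with ASO2, and 1074, 1229, 1252 and 1233 with NCA. In NGP, PCLO was at 328, 335 and 346 with ASO2, 340.3, 334 and 318 with ASO10, and 779, 755 and 906 with NCA. PCLO in SK-N-BE(2)c was at 345, 391 and 397 with ASO2, 437, 442 and 416 with ASO10, and 1004, 988 and 970.5 with NCA. Every ASO library lay below every NCA library of its line, and in SK-N-BE(2)c and NGP the ASO libraries stood at well under the control level. The log2 fold change was -0.49 (SE 0.068, adjusted p 1.86e-05) with ASO1 and -0.60 (SE 0.068, adjusted p 2.23e-06) with ASO2 in IMR32. It was -1.27 (SE 0.085, adjusted p 4.5e-12) with ASO2 and -1.29 (SE 0.085, adjusted p 3.21e-12) with ASO10 in NGP, and -1.39 (SE 0.077, adjusted p 7.24e-15) and -1.19 (SE 0.077, adjusted p 3.13e-13) in SK-N-BE(2)c.

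BSN encodes bassoon, the partner scaffold of piccolo. In IMR32, BSN was at 1666, 1896, 1947 and 1807 with ASO2 and 2177, 2225, 2282 and 2371 with NCA. In NGP, BSN was at 1296, 1463 and 1366 with ASO2 and 1664, 1767 and 1698 with NCA. BSN in SK-N-BE(2)c was at 1012, 975 and 893 with ASO2 and 1219, 1162 and 1033 with NCA. The ASO2 libraries lay below the NCA libraries in each line, narrowly so in SK-N-BE(2)c. The ASO2 fold changes were -0.31 (adjusted p 0.000111) in IMR32, -0.32 (adjusted p 0.000142) in NGP and -0.24 (adjusted p 0.00294) in SK-N-BE(2)c, which became -0.38 after rescaling to the same total. BSN also fell with ASO1 in IMR32 (-0.32) and with ASO10 in NGP (-0.26), and with ASO10 in SK-N-BE(2)c it was 0.13 (95% interval -0.01 to 0.27).

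RIMS2 encodes a RIM scaffold that binds RAB3 and recruits calcium channels. In IMR32, RIMS2 was at 750.1, 895, 923 and 955 with ASO1, 940.2, 907, 979 and 1017 with ASO2, and 1148, 1262, 1238 and 1328 with NCA. In NGP, RIMS2 was at 213, 177 and 158 with ASO2 and 307, 293 and 342 with NCA. RIMS2 in SK-N-BE(2)c was at 372, 387 and 404 with ASO2 and 875, 741 and 813 with NCA. No ASO1 or ASO2 library reached the lowest NCA library of its line. The fold changes were -0.50 (SE 0.067, adjusted p 1.07e-05) with ASO1 and -0.37 (SE 0.067, adjusted p 0.000298) with ASO2 in IMR32, and with ASO2 -1.06 (SE 0.077, adjusted p 1.8e-12) in SK-N-BE(2)c and -0.79 (SE 0.12, adjusted p 4.69e-06) in NGP. With ASO10, RIMS2 was -0.39 in NGP (adjusted p 0.00931), a call lost without ASO10 replicate 2 (-0.31, adjusted p 0.0565), and -0.15 (95% interval -0.31 to 0.01) in SK-N-BE(2)c. RIMS1, its paralogue, was tested in NGP, where it fell with ASO2 (-0.86) and was 0.18 (95% interval -0.24 to 0.60) with ASO10.

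CADPS encodes CAPS1, which primes dense-core granules. In IMR32, CADPS was at 250.0, 298, 279.6 and 291 with ASO1, 296, 309.8, 385 and 328 with ASO2, and 412, 458, 466 and 481 with NCA. In NGP, CADPS was at 1276, 1452 and 1186 with ASO2, 954, 1003 and 1104 with ASO10, and 1715, 1728 and 2146 with NCA. CADPS in SK-N-BE(2)c was at 402, 426 and 407 with ASO2 and 729, 659 and 725 with NCA. All ASO libraries were below the NCA libraries, with ASO10 lowest in NGP and the IMR32 ASO1 and ASO2 libraries touching. CADPS was -0.70 (SE 0.081, adjusted p 2.15e-06) with ASO1 in IMR32 and at -0.86 (SE 0.082, adjusted p 2.62e-09) with ASO10 in NGP. With ASO2 it was -0.47 (adjusted p 0.000223) in IMR32, -0.51 (adjusted p 8.9e-06) in NGP and -0.77 (adjusted p 4.31e-09) in SK-N-BE(2)c, and with ASO10 in SK-N-BE(2)c -0.66 (adjusted p 1.22e-07).

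UNC13A encodes Munc13-1, the main priming factor of small vesicles. UNC13A in SK-N-BE(2)c was at 1781, 1898 and 1843 with ASO2, 3621, 3678 and 3497 with ASO10, and 2446, 2264 and 2285 with NCA. The 3 groups did not overlap, with ASO2 lowest and ASO10 highest. UNC13A rose with ASO10 by 0.63 (SE 0.054, adjusted p 9.36e-11) in SK-N-BE(2)c and by 0.44 (SE 0.063, adjusted p 2.1e-06) in NGP. With ASO2 it fell in SK-N-BE(2)c (-0.34) and in IMR32 (-0.25), and was -0.07 (95% interval -0.20 to 0.06) in NGP. UNC13B, its paralogue, moved less: it fell with ASO1 in IMR32 (-0.19) and in SK-N-BE(2)c with ASO2 (-0.31), and its fall with ASO2 in IMR32 (-0.15) was lost without ASO2 replicate 4 or NCA replicate 3 or 4 (-0.15 to -0.12, adjusted p 0.0536 to 0.0918).

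**Figure D2:**
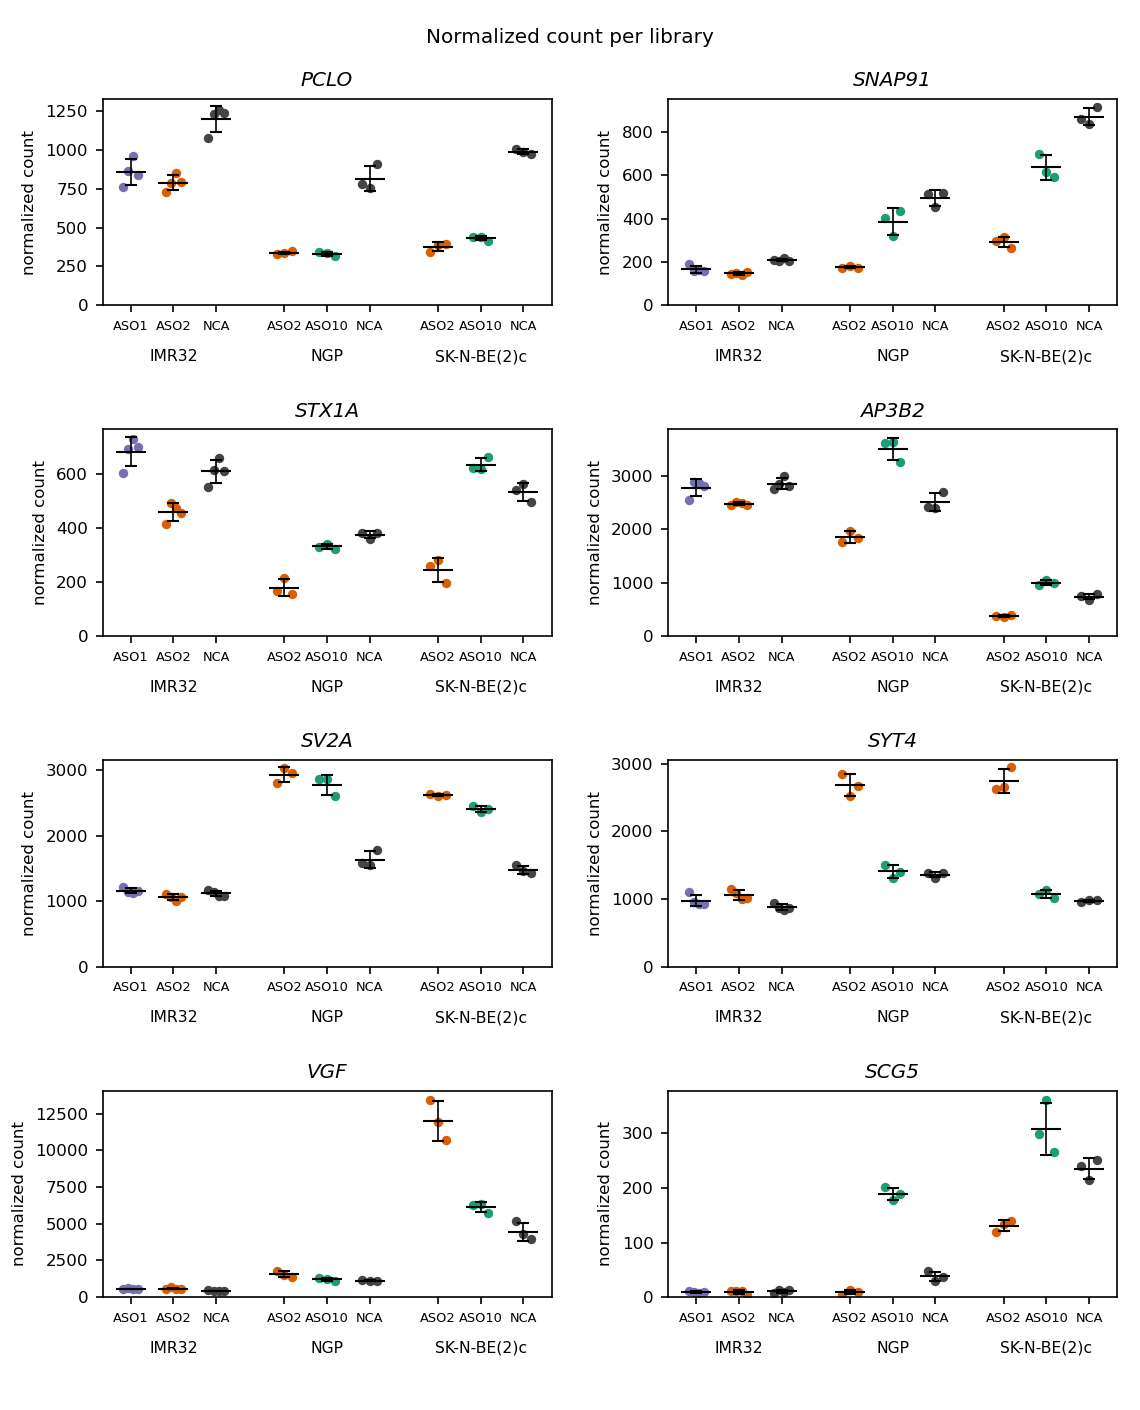
Normalized counts of 8 members in every library (points), with group means (bars across) and SD (error bars), by line and ASO. PCLO and SNAP91 ASO libraries lie below their NCA libraries in all 3 lines, while SV2A lies above them in SK-N-BE(2)c and NGP and overlaps them in IMR32.

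Among the genes of vesicle retrieval and budding, ASO2 lowered every one tested: 3 of 3 in SK-N-BE(2)c and 4 of 4 in each of NGP and IMR32. Of all genes tested, 33.4%, 28.1% and 14.8% fell in these comparisons. With ASO1 in IMR32 2 of 4 fell, against 14.4% of all genes. ASO10 lowered 2 and raised 1 of 4 in NGP, where 27.6% of all genes fell and 26.8% rose. In SK-N-BE(2)c ASO10 lowered 1 and raised 1 of 3, near the 31.1% and 27.8% of all genes.

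SNAP91 (ENSG00000065609) encodes AP180, which assembles clathrin during vesicle recycling. In IMR32, SNAP91 was at 144, 149.7, 141 and 154 with ASO2 and 209, 202, 216 and 207 with NCA. In NGP, SNAP91 was at 174, 183 and 172 with ASO2, 402, 318 and 437 with ASO10, and 515, 454 and 520.0 with NCA. SNAP91 in SK-N-BE(2)c was at 295, 316 and 266 with ASO2, 700.3, 617 and 593 with ASO10, and 860.2, 836 and 915 with NCA. In SK-N-BE(2)c and NGP the groups were ordered without overlap, ASO2 lowest, ASO10 between and NCA highest. The fold changes with ASO2 were -1.57 (SE 0.083, adjusted p 2.84e-15) in SK-N-BE(2)c, -1.48 (SE 0.11, adjusted p 1.43e-11) in NGP and -0.50 (SE 0.081, adjusted p 0.000115) in IMR32. SNAP91 also fell with ASO1 in IMR32 (-0.33, adjusted p 0.00484) and with ASO10 in SK-N-BE(2)c (-0.45, adjusted p 3.47e-05). Its fall with ASO10 in NGP (-0.37, adjusted p 0.00446) was lost without ASO10 replicate 2 (-0.24, adjusted p 0.0605).

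AP3B2 (ENSG00000103723) encodes the neuronal beta subunit of the AP-3 adaptor, which sorts cargo into budding vesicles. In IMR32, AP3B2 was at 2452, 2517, 2489.9 and 2468 with ASO2 and 2757, 2853, 3006 and 2821 with NCA. In NGP, AP3B2 was at 1756, 1973 and 1844 with ASO2, 3616, 3635 and 3268 with ASO10, and 2430.2, 2396 and 2712 with NCA. AP3B2 in SK-N-BE(2)c was at 372, 363 and 386 with ASO2, 965, 1048 and 987 with ASO10, and 750.3, 684 and 786 with NCA. The ASO2 libraries lay below NCA in all 3 lines, and the ASO10 libraries lay above NCA in SK-N-BE(2)c and NGP. AP3B2 fell with ASO2, with fold changes of -0.98 (SE 0.074, adjusted p 3.28e-12) in SK-N-BE(2)c, -0.43 (SE 0.061, adjusted p 1.23e-06) in NGP and -0.20 (SE 0.047, adjusted p 0.00239) in IMR32. It rose with ASO10, by 0.44 (SE 0.074, adjusted p 1.2e-05) in SK-N-BE(2)c and 0.48 (SE 0.061, adjusted p 3.03e-07) in NGP.

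DNM1 encodes dynamin 1, the GTPase that pinches off recycling vesicles. In IMR32, DNM1 was at 1284, 1482, 1628 and 1488 with ASO2 and 1601, 1876, 1894 and 1823 with NCA. In NGP, DNM1 was at 1272, 1366 and 1292 with ASO2 and 1622, 1593 and 1695 with NCA. DNM1 in SK-N-BE(2)c was at 977, 973 and 999 with ASO2 and 1557, 1361 and 1387 with NCA. The IMR32 groups overlapped, and in the other lines every ASO2 library lay below NCA. The ASO2 fold changes were -0.29 (adjusted p 0.00491) in IMR32, -0.32 (adjusted p 0.000117) in NGP and -0.54 (adjusted p 1.23e-08) in SK-N-BE(2)c. With ASO10, DNM1 was 0.04 (95% interval -0.09 to 0.17) in SK-N-BE(2)c and -0.07 (95% interval -0.20 to 0.06) in NGP. AMPH, which encodes amphiphysin, a dynamin partner, fell with ASO2 in IMR32 (-0.31) and NGP (-1.07), and its fall with ASO10 in NGP (-0.58) was lost without ASO10 replicate 1, 2 or 3 or NCA replicate 1 or 3 (-0.59 to -0.47, adjusted p 0.0555 to 0.115).

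The vesicle membrane proteins did not move together. They counted 1 higher and 2 lower of 7 with ASO1 and 1 higher and 3 lower of 7 with ASO2 in IMR32, 2 higher and 2 lower of 5 and 1 higher and 2 lower of 5 with ASO2 and ASO10 in NGP, and 2 higher and 2 lower of 4 with each of these ASOs in SK-N-BE(2)c. Of all genes tested, 13.6% rose and 14.4% fell with ASO1 in IMR32, and 17.6% and 14.8% with ASO2. In NGP the shares were 30.6% and 28.1% with ASO2 and 26.8% and 27.6% with ASO10. In SK-N-BE(2)c they were 33.6% and 33.4% with ASO2 and 27.8% and 31.1% with ASO10. The 14.3% of this role that rose with ASO1 in IMR32 lay near the share of all genes. In NGP, SV2A rose while SV2C, which encodes a related transporter-like glycoprotein of the vesicle membrane, fell.

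SV2A (ENSG00000159164) encodes the SV2 form known as the binding site of the drug levetiracetam. In NGP, SV2A was at 2803, 3039 and 2958 with ASO2, 2858, 2871 and 2599 with ASO10, and 1582, 1544 and 1778 with NCA. SV2A in SK-N-BE(2)c was at 2629.8, 2603 and 2620.2 with ASO2, 2453, 2368 and 2411 with ASO10, and 1546, 1459 and 1427 with NCA. Every ASO library of these lines was above every NCA library by a wide gap. SV2A rose by 0.84 (SE 0.060, adjusted p 1.53e-11) with ASO2 and 0.76 (SE 0.060, adjusted p 9.52e-11) with ASO10 in NGP, and by 0.83 (SE 0.054, adjusted p 1.76e-13) and 0.71 (SE 0.054, adjusted p 8.2e-12) in SK-N-BE(2)c. In IMR32 it was 0.05 (95% interval -0.05 to 0.16) with ASO1 and -0.08 (95% interval -0.18 to 0.02) with ASO2.

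SV2B and SV2C were each measured in fewer lines. In IMR32, SV2B was at 54.8, 41.9, 49.3 and 43.4 with ASO1, 46.5, 34.8, 33.2 and 44.6 with ASO2, and 96.7, 96.2, 89.0 and 73.5 with NCA. No ASO library reached the lowest NCA library, and SV2B was -0.89 (SE 0.15, adjusted p 0.000106) with ASO1 and -1.15 (SE 0.15, adjusted p 8.72e-06) with ASO2, the deepest member fall with either ASO in IMR32. In NGP, SV2C was at 458, 489 and 460.5 with ASO2, 282, 277 and 345 with ASO10, and 696, 613 and 810.2 with NCA. The groups were ordered without overlap, ASO10 lowest, and SV2C was -1.22 (SE 0.099, adjusted p 1.35e-10) with ASO10 and -0.58 with ASO2 (adjusted p 1.81e-05). In IMR32 its fall with ASO1 (-0.21) was lost without ASO1 replicate 2 or NCA replicate 3 (-0.19 to -0.18, adjusted p 0.051 to 0.0632).

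SYPL1 encodes a synaptophysin relative found in many tissues. In IMR32, SYPL1 was at 167, 166, 145 and 158 with ASO1, 197, 168, 157 and 162 with ASO2, and 131, 134, 129.6 and 141 with NCA. In NGP, SYPL1 was at 355, 314 and 343 with ASO2, 171, 189 and 190.3 with ASO10, and 199, 187 and 201 with NCA. SYPL1 in SK-N-BE(2)c was at 1159, 1211 and 1098 with ASO2 and 864, 787 and 885 with NCA. The ASO2 libraries lay above NCA in all 3 lines, and the ASO10 libraries overlapped NCA in NGP. SYPL1 rose with ASO2 by 0.45 (SE 0.075, adjusted p 6.46e-06) in SK-N-BE(2)c, 0.78 (SE 0.10, adjusted p 4.75e-07) in NGP and 0.35 (SE 0.088, adjusted p 0.0048) in IMR32, and fell with ASO10 in SK-N-BE(2)c (-0.33, adjusted p 0.000502). Its rise with ASO1 in IMR32 (0.24 (SE 0.088, adjusted p 0.0432)) was lost without ASO1 replicate 1, 2 or 4 or NCA replicate 1, 2, 3 or 4 (0.22 to 0.27, adjusted p 0.0527 to 0.101).

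SYNGR1 encodes synaptogyrin 1, an integral protein of the vesicle membrane. In IMR32, SYNGR1 was at 438, 423, 409.6 and 377 with ASO2 and 513, 506, 530.5 and 494 with NCA. In NGP, SYNGR1 was at 329, 323 and 367 with ASO2 and 473, 469 and 401 with NCA. SYNGR1 in SK-N-BE(2)c was at 554, 503 and 528 with ASO2 and 744, 634 and 636 with NCA. No ASO2 library overlapped NCA in any line. The ASO2 fold changes were -0.31 (adjusted p 0.00048) in IMR32, -0.40 (adjusted p 0.000832) in NGP and -0.34 (adjusted p 0.000476) in SK-N-BE(2)c. With ASO10 it fell in NGP (-0.70), and its fall in SK-N-BE(2)c (-0.24) was lost without ASO10 replicate 3 or NCA replicate 1 (-0.19 to -0.16, adjusted p 0.0888 to 0.111). SYP, which encodes synaptophysin, fell with ASO2 in IMR32 (-0.23) and SK-N-BE(2)c (-0.29) and rose with ASO10 in SK-N-BE(2)c (0.18).

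Synapsins and RAB3 proteins bind vesicles to actin and to the release site. This role counted 0 higher and 3 lower of 7 with ASO1 and 2 higher and 2 lower of 7 with ASO2 in IMR32. The counts were 1 higher and 3 lower of 6 with ASO2 and 0 higher and 4 lower of 6 with ASO10 in NGP, and 0 higher and 3 lower of 6 and 1 higher and 4 lower of 6 in SK-N-BE(2)c. They are best read against the shares of all genes given with the vesicle membrane proteins. The share of this role that fell lay above that of all genes in each comparison. The share that rose lay below it, except with ASO2 in IMR32 (28.6% against 17.6%).

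SYN2 encodes synapsin II. In IMR32, SYN2 was at 1466, 1647, 1682 and 1622 with ASO2 and 1743, 1911, 1925 and 1956 with NCA. In NGP, SYN2 was at 464, 513 and 469 with ASO2 and 801, 813 and 881 with NCA. SYN2 in SK-N-BE(2)c was at 176, 175 and 132 with ASO2 and 289, 306 and 311 with NCA. ASO2 libraries lay below NCA in all 3 lines. The ASO2 fold changes were -0.92 (SE 0.12, adjusted p 1.13e-07) in SK-N-BE(2)c, -0.78 (SE 0.074, adjusted p 2.26e-09) in NGP and -0.23 (SE 0.059, adjusted p 0.00493) in IMR32, and SYN2 also fell with ASO1 in IMR32 (-0.36) and with ASO10 in SK-N-BE(2)c (-0.87) and NGP (-0.43). With ASO2 SYN1, synapsin I, was 0.15 (95% interval -0.03 to 0.34) in SK-N-BE(2)c and -0.02 (95% interval -0.24 to 0.19) in NGP, and its rise with ASO10 in SK-N-BE(2)c (0.27) was lost without ASO10 replicate 2 or NCA replicate 3 (0.19 to 0.22, adjusted p 0.0604 to 0.101). SYN3 fell with ASO1 in IMR32 (-0.41), a call lost without ASO1 replicate 1, 3 or 4 or NCA replicate 1, 3 or 4 (-0.42 to -0.31, adjusted p 0.0664 to 0.172).

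RAB3C encodes a RAB3 GTPase of neuronal vesicles. In IMR32, RAB3C was at 335, 354, 378 and 368 with ASO2 and 416, 542, 434 and 447 with NCA. In NGP, RAB3C was at 187, 205 and 197 with ASO2 and 467, 407 and 565 with NCA. RAB3C in SK-N-BE(2)c was at 601, 598 and 584 with ASO2, 674, 565 and 610.0 with ASO10, and 1355, 1262 and 1373 with NCA. Every ASO2 library lay below NCA, and in SK-N-BE(2)c the ASO2 and ASO10 libraries overlapped each other far below NCA. RAB3C fell with ASO2, with fold changes of -1.16 (SE 0.072, adjusted p 6.68e-14) in SK-N-BE(2)c, -1.27 (SE 0.10, adjusted p 1.7e-10) in NGP and -0.35 (SE 0.080, adjusted p 0.00218) in IMR32. With ASO10 it was -1.11 in SK-N-BE(2)c and -0.40 in NGP (adjusted p 3.34e-13 and 0.00215). Its fall with ASO1 in IMR32 (-0.26) was lost without ASO1 replicate 2, 3 or 4 or NCA replicate 2 (-0.24 to -0.18, adjusted p 0.0504 to 0.0942).

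RAB3A, the most studied RAB3, went its own way. In IMR32, RAB3A was at 241, 216, 207 and 204 with ASO1, 293, 323, 318 and 312 with ASO2, and 266, 248, 226 and 232 with NCA. The ASO2 libraries lay above those of both other groups, which overlapped. RAB3A rose with ASO2 by 0.36 (SE 0.075, adjusted p 0.00106) in IMR32 and by 0.59 (SE 0.072, adjusted p 1.53e-07) in NGP, while it was 0.16 (95% interval -0.09 to 0.41) in SK-N-BE(2)c. With ASO10 it fell in SK-N-BE(2)c (-0.74, adjusted p 8.73e-06), and its fall in NGP (-0.24) was lost without ASO10 replicate 3 (-0.18, adjusted p 0.0581).

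RPH3A encodes rabphilin, a RAB3 effector that binds calcium and SNAP-25. In IMR32, RPH3A was at 31.9, 27.6, 29.4 and 25.9 with ASO1, 59.6, 48.0, 46.7 and 69.7 with ASO2, and 23.6, 13.6, 22.0 and 24.8 with NCA. The groups were ordered without overlap, NCA lowest and ASO2 highest, at low levels. RPH3A rose by 1.39 (SE 0.19, adjusted p 2e-05) with ASO2, the highest member rise in IMR32, and was 0.46 (95% interval 0.06 to 0.87) with ASO1. In the other lines it fell, with ASO2 at -0.93 (SE 0.068, adjusted p 1.35e-12) in SK-N-BE(2)c and -0.67 (SE 0.10, adjusted p 5.95e-06) in NGP and with ASO10 at -0.78 (adjusted p 1.05e-10) in SK-N-BE(2)c and -0.86 (adjusted p 1.59e-07) in NGP.

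The synaptotagmins, which include the calcium sensors of release, were also divided. They counted 0 higher and 2 lower of 4 with ASO1 and 1 higher and 1 lower of 4 with ASO2 in IMR32, 1 higher and 2 lower of 5 with ASO2 and the same with ASO10 in NGP, and 1 higher and 2 lower of 5 and 1 higher and 3 lower of 5 in SK-N-BE(2)c. These counts of 4 or 5 genes, too, are best read against the shares of all genes given with the vesicle membrane proteins. Falls took a larger share of this role than of all genes in each comparison. With ASO2 in SK-N-BE(2)c the shares that fell were near each other, at 40% and 33.4%. Rises took a smaller share than among all genes, except with ASO2 in IMR32 (25% against 17.6%). SYT1 and SYT4 went in opposite directions with ASO2 in every line.

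SYT1 encodes the fast calcium sensor of synaptic vesicles. In IMR32, SYT1 was at 4452, 4295, 4074 and 4084 with ASO2 and 5221, 5119, 4915 and 5186 with NCA. In NGP, SYT1 was at 580.2, 694 and 626 with ASO2 and 920.5, 868 and 1109.7 with NCA. SYT1 in SK-N-BE(2)c was at 929, 963 and 875 with ASO2, 994, 720.1 and 832 with ASO10, and 1831, 1656 and 1809 with NCA. ASO libraries lay below NCA in all 3 lines, including those of ASO1 in IMR32 and ASO10 in NGP. With ASO2 the fold changes were -0.94, -0.60 and -0.27 in SK-N-BE(2)c, NGP and IMR32 (adjusted p 6.21e-11, 1.32e-06 and 0.000103). With ASO1 in IMR32 SYT1 was -0.49 (SE 0.044, adjusted p 8.23e-08), and with ASO10 it was -1.07 (SE 0.082, adjusted p 8.49e-12) in SK-N-BE(2)c and -0.77 (SE 0.085, adjusted p 3.68e-08) in NGP.

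SYT4 (ENSG00000132872) encodes a synaptotagmin of dense-core granules and the Golgi. In IMR32, SYT4 was at 1146, 1088, 997 and 1008 with ASO2 and 947, 862, 841 and 871 with NCA. In NGP, SYT4 was at 2851, 2529.6 and 2672 with ASO2, 1505, 1317 and 1403 with ASO10, and 1385, 1314 and 1378 with NCA. SYT4 in SK-N-BE(2)c was at 2635, 2662 and 2952 with ASO2, 1070.4, 1130.3 and 1021 with ASO10, and 959.6, 982 and 981 with NCA. ASO2 libraries were above NCA in all 3 lines, while ASO10 libraries overlapped NCA in NGP and stood just above it in SK-N-BE(2)c. SYT4 rose with ASO2 by 1.49 (SE 0.062, adjusted p 2.63e-17) in SK-N-BE(2)c, 0.98 (SE 0.062, adjusted p 1.72e-12) in NGP and 0.27 (SE 0.062, adjusted p 0.00272) in IMR32. With ASO10 it was 0.14 (95% interval 0.01 to 0.27) in SK-N-BE(2)c and 0.05 (95% interval -0.08 to 0.18) in NGP.

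SYT5 encodes a calcium sensor of granules. In NGP, SYT5 was at 112, 108 and 92.7 with ASO10 and 71.9, 81.5 and 56.4 with NCA. SYT5 in SK-N-BE(2)c was at 404, 478 and 418 with ASO10 and 304, 338 and 232 with NCA. The ASO10 libraries lay above NCA in both lines, and SYT5 rose with ASO10 by 0.59 (SE 0.12, adjusted p 8.2e-05) in SK-N-BE(2)c and 0.58 (SE 0.18, adjusted p 0.00725) in NGP. With ASO2 it was 0.15 (95% interval -0.09 to 0.38) in SK-N-BE(2)c and 0.03 (95% interval -0.33 to 0.39) in NGP. SYT11, which does not bind calcium, fell in NGP with ASO2 (-0.66) and ASO10 (-0.59) and in SK-N-BE(2)c with ASO2 (-0.54) and ASO10 (-0.40). SYT7, a slow calcium sensor, fell with ASO10 in SK-N-BE(2)c (-0.46), and its fall with ASO1 in IMR32 (-0.16) was lost without ASO1 replicate 2 or 3 or NCA replicate 1, 3 or 4 (-0.17 to -0.12, adjusted p 0.0622 to 0.122).

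The SNAREs form the fusion complex and the complexins clamp it. They counted 1 higher and 2 lower of 6 with ASO1 and 0 higher and 2 lower of 6 with ASO2 in IMR32, 1 higher and 2 lower of 6 and 0 higher and 2 lower of 6 with ASO2 and ASO10 in NGP, and 1 higher and 2 lower of 6 with each of these ASOs in SK-N-BE(2)c. The share of this role that fell was 33.3% in each comparison, against 14.4% and 14.8% of all genes in IMR32. It lay near the share of all genes in NGP (28.1% and 27.6%) and SK-N-BE(2)c (33.4% and 31.1%). The plasma membrane SNAREs SNAP25 and STX1A fell with ASO2 in every line, and VAMP2, the vesicle SNARE, was not called.

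SNAP25 encodes SNAP-25. In IMR32, SNAP25 was at 846, 854, 905 and 892 with ASO2 and 1044, 1097, 1084 and 994 with NCA. In NGP, SNAP25 was at 759, 862 and 776 with ASO2 and 1205, 1056 and 1250.2 with NCA. SNAP25 in SK-N-BE(2)c was at 659, 634 and 613 with ASO2 and 1426, 1306 and 1447 with NCA. No ASO2 library reached an NCA library of its line. The ASO2 fold changes were -1.13 (SE 0.071, adjusted p 7.41e-14) in SK-N-BE(2)c, -0.55 (SE 0.073, adjusted p 5.73e-07) in NGP and -0.27 (SE 0.059, adjusted p 0.00173) in IMR32. SNAP25 also fell with ASO10 in SK-N-BE(2)c (-0.52) and NGP (-0.34), and its fall with ASO1 in IMR32 (-0.20) was lost without ASO1 replicate 3 or 4 or NCA replicate 2 or 3 (-0.18 to -0.14, adjusted p 0.0534 to 0.0815).

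STX1A encodes syntaxin 1A. In IMR32, STX1A was at 603, 690.1, 729 and 698 with ASO1, 415, 491, 473 and 455 with ASO2, and 551, 612, 659 and 609 with NCA. In NGP, STX1A was at 166, 214 and 155 with ASO2 and 382, 359 and 380.5 with NCA. STX1A in SK-N-BE(2)c was at 258, 282 and 194 with ASO2, 620.3, 618 and 662 with ASO10, and 538, 563 and 495 with NCA. ASO2 libraries were lowest in each line, ASO1 libraries overlapped NCA in IMR32, and ASO10 libraries lay above NCA in SK-N-BE(2)c. STX1A fell with ASO2, with fold changes of -1.13 (SE 0.10, adjusted p 1.16e-10) in SK-N-BE(2)c, -1.08 (SE 0.11, adjusted p 5.95e-09) in NGP and -0.41 (SE 0.070, adjusted p 0.000194) in IMR32. Its rise with ASO10 in SK-N-BE(2)c (0.25, adjusted p 0.0348) was lost without ASO10 replicate 2 or 3 or NCA replicate 1 or 3 (0.20 to 0.27, adjusted p 0.0516 to 0.127), and with ASO10 in NGP it was -0.17 (95% interval -0.40 to 0.05).

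VAMP1 encodes synaptobrevin 1. In IMR32, VAMP1 was at 169.7, 230.0, 208 and 190.5 with ASO1 and 117, 143, 144 and 159.9 with NCA. The ASO1 libraries lay above NCA, and VAMP1 rose by 0.50 (SE 0.14, adjusted p 0.0101). It was called in no other comparison with NCA. VAMP2, the partner in most synaptic vesicles, ranged from -0.16 with ASO2 in SK-N-BE(2)c to 0.01 with ASO10 in NGP. CPLX2 rose with ASO2 in NGP (0.31) and fell with ASO10 in SK-N-BE(2)c (-0.23) and NGP (-0.26). With ASO2 in SK-N-BE(2)c CPLX2 was called higher (0.12), but the value was -0.01 after rescaling to the same total, was 0.19 without NCA replicate 1, and lost its call without ASO2 replicate 1 or 2 or NCA replicate 2 or 3 (0.07 to 0.12, adjusted p 0.0828 to 0.225). CPLX1 fell with ASO1 in IMR32 (-0.31).

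With ASO2, granule cargo genes rose more often than they fell. In these comparisons 3 of 4 rose and 1 fell in NGP and likewise in SK-N-BE(2)c, and 1 of 3 rose in IMR32. Of all genes tested, 30.6% rose and 28.1% fell in NGP. The shares were 33.6% and 33.4% in SK-N-BE(2)c and 17.6% and 14.8% in IMR32. With ASO10, 1 rose and 1 fell of 4 in NGP, near the 26.8% and 27.6% of all genes. In SK-N-BE(2)c 2 rose and 1 fell of 4 with ASO10, against 27.8% and 31.1%. With ASO1 in IMR32 1 of 3 rose and 1 fell, against 13.6% and 14.4%. These are counts of 3 or 4 genes.

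VGF (ENSG00000128564) encodes a granin-like neuropeptide precursor whose gene is a classic target of cyclic AMP and neurotrophin signals. In IMR32, VGF was at 574, 594, 547 and 549 with ASO1, 556, 667, 558 and 559 with ASO2, and 460.1, 445, 443 and 440.1 with NCA. In NGP, VGF was at 1802, 1539 and 1358 with ASO2 and 1186, 1099.7 and 1108 with NCA. VGF in SK-N-BE(2)c was at 13422, 11955 and 10688 with ASO2, 6296, 6324 and 5715 with ASO10, and 5158, 4281 and 3978 with NCA. The ASO libraries shown lay above NCA in every line, and in SK-N-BE(2)c the ASO2 libraries were far above the rest. VGF rose by 0.34 (SE 0.062, adjusted p 0.000321) with ASO1 and 0.38 (SE 0.062, adjusted p 0.000109) with ASO2 in IMR32. It rose with ASO2 by 1.43 (SE 0.074, adjusted p 1.8e-15) in SK-N-BE(2)c and 0.46 (SE 0.082, adjusted p 3.28e-05) in NGP, and with ASO10 by 0.46 in SK-N-BE(2)c (adjusted p 5.76e-06), while in NGP it was 0.09 (95% interval -0.08 to 0.26).

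Promoter sequence is shown for VGF and SYN1 because they alone among the members hold the full cyclic AMP response element (CRE) in the searched window. RefSeq tables on GRCh38.p14 gave windows from 250 bases before to 50 after a start for 33 of the 41 members. Members such as RIMS1 had more than a single window. The 250 bases before the start are printed 5′ to 3′ on the gene's strand, with capitals marking motif matches.
VGF, chr7:101165570-101165819, minus strand: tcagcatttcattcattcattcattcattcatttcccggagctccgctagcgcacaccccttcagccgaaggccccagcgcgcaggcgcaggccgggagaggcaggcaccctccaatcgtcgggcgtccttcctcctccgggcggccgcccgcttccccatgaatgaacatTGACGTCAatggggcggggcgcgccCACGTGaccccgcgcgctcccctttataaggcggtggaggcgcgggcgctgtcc
SYN1, chrX:47619858-47620107, minus strand: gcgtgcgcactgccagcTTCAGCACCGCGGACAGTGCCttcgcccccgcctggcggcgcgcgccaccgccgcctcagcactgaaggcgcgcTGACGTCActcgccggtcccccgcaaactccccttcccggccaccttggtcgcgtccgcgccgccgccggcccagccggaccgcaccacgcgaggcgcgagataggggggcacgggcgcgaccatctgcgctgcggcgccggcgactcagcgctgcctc
In VGF the CRE (TGACGTCA) lies at -79 to -72 from the start and an E-box (CACGTG) at -54 to -49. In SYN1 the CRE lies at -159 to -152 and a match to RE1, the element bound by the repressor REST, at -233 to -213. Both strands were searched, and of 35116 windows of all genes, 1.848% hold the CRE, 7.256% the E-box and 0.04272% the RE1. UNC13A also holds the E-box, RAB3B, RIMS1 and SYP hold the AP-1 letters (TGANTCA, in 7.709% of windows), 14 of 33 members hold the CRE half-site TGACG, which is part of the CRE (24.55% of windows), and none holds TGATGNAA (3.617%). A member was counted when any of its windows held the letters, while the percents are shares of single windows. Counts of members and these percents are therefore not like for like. A match is a description of the letters only. VGF rose in 5 of its 6 comparisons, and SYN1, with the same CRE letters, was called in 1 of 6.

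SCG5 (ENSG00000166922) encodes 7B2, which escorts the prohormone convertase PCSK2 to granules. In NGP, SCG5 was at 4.64, 12.8 and 10.0 with ASO2, 201, 178 and 188 with ASO10, and 47.4, 30.1 and 36.9 with NCA. SCG5 in SK-N-BE(2)c was at 119, 134 and 139 with ASO2, 298, 360.1 and 266 with ASO10, and 241, 214 and 251 with NCA. In both lines the groups were ordered without overlap, ASO2 lowest and ASO10 highest. SCG5 fell with ASO2, with fold changes of -0.84 (SE 0.12, adjusted p 4.79e-07) in SK-N-BE(2)c and -2.02 (SE 0.27, adjusted p 4.97e-07) in NGP and rose with ASO10 by 2.30 (SE 0.27, adjusted p 7.28e-08) in NGP. Its rise with ASO10 in SK-N-BE(2)c (0.38, adjusted p 0.00731) was lost without ASO10 replicate 2 (0.26, adjusted p 0.0834).

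SCG2 and SCG3 encode secretogranins II and III. SCG2 rose with ASO2 in SK-N-BE(2)c (0.62) and NGP (0.55), and with ASO10 it was 0.03 (95% interval -0.09 to 0.15) in SK-N-BE(2)c and 0.04 (95% interval -0.08 to 0.15) in NGP. SCG3 rose with ASO2 in NGP (0.30) and SK-N-BE(2)c (0.32, or 0.19 after rescaling to the same total), and fell with ASO10 in SK-N-BE(2)c (-0.36) and NGP (-0.23) and with ASO1 in IMR32 (-0.38).

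10 members share exon sequence with a gene on the opposite strand, SYP, SV2C, SYN1, SYN2, RAB3A, SYT1, STX1A, VAMP1, SCG5 and DNM1. The labels do not say whether strand was used in counting, so reads of such partners cannot be told apart.

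Setting the ASOs against each other within a line showed how far the members differed between them. In NGP, 11 members were higher and 13 lower with ASO2 than with ASO10 of 37, where 30.6% and 28% of all genes were called. Counts in SK-N-BE(2)c were 8 and 15 of 34, against 34.6% and 30.8%. In IMR32, 4 were higher and 8 lower with ASO1 than with ASO2 of 37, against 9.17% and 12.8%, and after rescaling to the same total the members counted 7 and 4 while all genes moved from 1588 higher and 2207 lower to 2352 and 1581. The same rescaling moved all genes in SK-N-BE(2)c from 4689 and 4172 to 3678 and 5016 (median from 0.03 to -0.08), and those in NGP from 4414 and 4044 to 3795 and 4551 (median from 0.02 to -0.04). On the deposited scale, the share of members lower with ASO2 than with ASO10 was above that of all genes in SK-N-BE(2)c.

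SCG5 had the widest gap, lower with ASO2 than with ASO10 in NGP, at -4.32 (SE 0.27, adjusted p 7.26e-13). SNAP91 was also lower with ASO2 in NGP, with -1.11 (SE 0.11, adjusted p 1.94e-09), while SYT4 and SYPL1 were higher with ASO2, by 0.93 (SE 0.062, adjusted p 2.69e-12) and 0.87 (SE 0.10, adjusted p 7.03e-08). AP3B2 and STX1A were lower with ASO2 in SK-N-BE(2)c, with -1.42 (SE 0.074, adjusted p 1.4e-15) and -1.39 (SE 0.10, adjusted p 1.99e-12), and SYT4 and VGF were higher, by 1.35 (SE 0.062, adjusted p 7.62e-17) and 0.97 (SE 0.074, adjusted p 4.07e-12). UNC13A was lower with ASO2 than with ASO10 in SK-N-BE(2)c (-0.97) and NGP (-0.51).

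Within IMR32 the gaps were smaller. RPH3A was lower with ASO1 than with ASO2, at -0.93 (SE 0.19, adjusted p 0.00154), and RAB3A, at -0.52 (SE 0.075, adjusted p 4.1e-05). STX1A was higher with ASO1 by 0.57 (SE 0.070, adjusted p 7.66e-06). In IMR32, SYP was at 1299.5, 1319, 1270.1 and 1277 with ASO1 and 1173, 1117, 1130.0 and 1140.4 with ASO2. The ASO1 libraries lay above the ASO2 libraries, and the difference was 0.18 (SE 0.043, adjusted p 0.00449).

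ASO2 was the one NESPR-directed ASO used in all 3 lines, each with its own NCA libraries. Of the 32 members tested in every line, 13 fell in all 3 lines and 3 rose in all 3, where 10.2% and 15% of the 11594 genes tested in every line did so. The 13 were the scaffolds PCLO, BSN and RIMS2, the priming factor CADPS, the recycling genes SNAP91, AP3B2 and DNM1, the SNARE genes SNAP25 and STX1A, and SYT1, SYN2, SYNGR1 and RAB3C. The 3 were SYT4, SYPL1 and VGF. Between NGP and SK-N-BE(2)c the ASO2 fold changes of 34 members had a Pearson r of 0.875 and a Spearman rho of 0.936, with 29 of the same sign. IMR32 had r of 0.455 and rho of 0.676 with NGP over 34 members, and 0.447 and 0.762 with SK-N-BE(2)c over 32. These are descriptions across genes of the same libraries, which are not independent replicates.

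The size of the ASO2 effect differed between SK-N-BE(2)c and NGP for 3 members in the higher and 5 in the lower direction of 34, where 10.5% and 9.37% of 12637 genes did, by a test of the difference itself. After rescaling to the same total, 3 and 9 members were called, and over all genes 865 and 1769 in place of 1330 and 1184. The lower count was 3 without NGP NCA replicate 1 or SK-N-BE(2)c NCA replicate 1 and 10 without NGP NCA replicate 3.

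SCG5 fell less in SK-N-BE(2)c than in NGP, with a difference of 1.18 (SE 0.30, adjusted p 0.00644). VGF and SYT4 rose more in SK-N-BE(2)c, by 0.97 (SE 0.13, adjusted p 4.27e-06) and 0.51 (SE 0.086, adjusted p 0.00012). SNAP25 and AP3B2 fell more in SK-N-BE(2)c, with -0.58 (SE 0.10, adjusted p 0.000218) and -0.55 (SE 0.093, adjusted p 0.000137). UNC13B differed by -0.33 (adjusted p 0.0135). The difference for RAB3A (-0.43) was lost without NGP ASO2 replicate 2 or NGP NCA replicate 1 or SK-N-BE(2)c ASO2 replicate 3 or SK-N-BE(2)c NCA replicate 1 (-0.42 to -0.40, adjusted p 0.0521 to 0.059), and that for UNC13A (-0.27) without NGP ASO2 replicate 2 or NGP NCA replicate 1 or 2 or SK-N-BE(2)c ASO2 replicate 1 or SK-N-BE(2)c NCA replicate 1 (-0.25 to -0.23, adjusted p 0.0556 to 0.073). PCLO and SNAP91, which fell deeply in both lines, differed by -0.12 (95% interval -0.35 to 0.11) and -0.09 (95% interval -0.37 to 0.20).

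**Figure D3:**
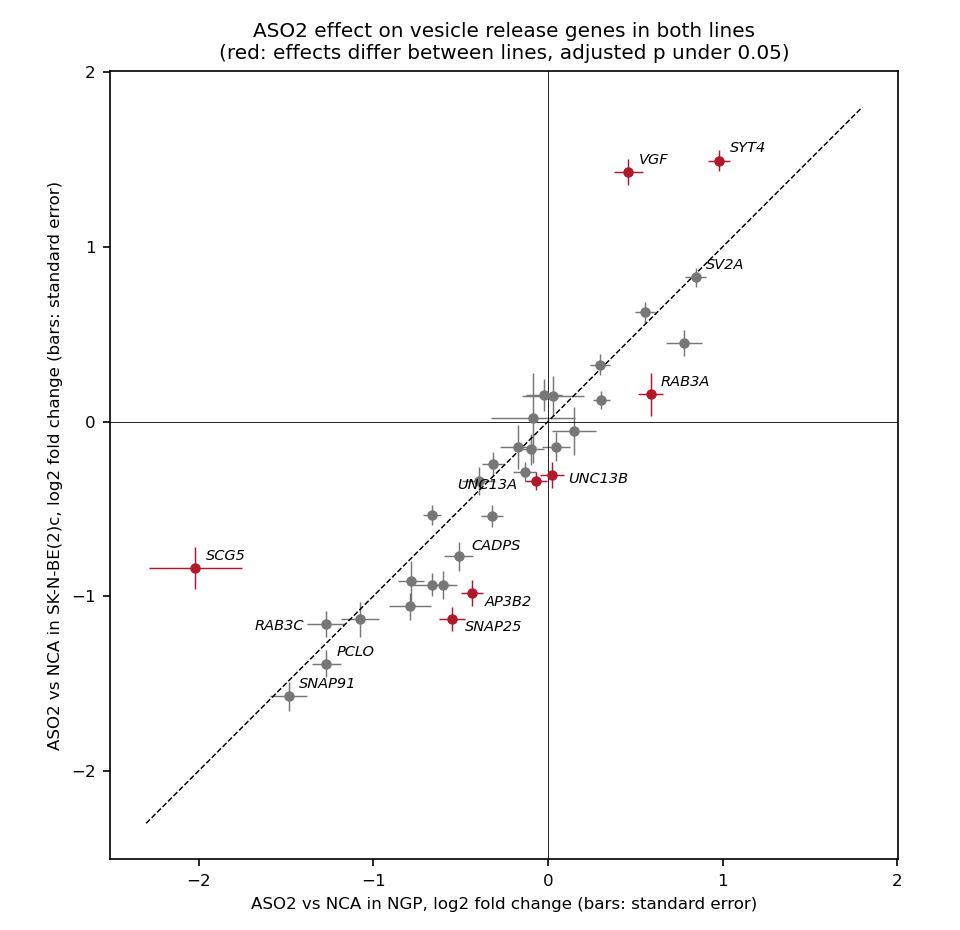
ASO2 log2 fold change against NCA in NGP (horizontal) and SK-N-BE(2)c (vertical) for the 34 members tested in both, with bars of 1 standard error and the line of equal effect. Members whose effects differed between the lines at an adjusted p under 0.05 are in red, with SCG5, VGF and SYT4 above the line and SNAP25 and AP3B2 below it.

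The members differ widely in the length of genome they span, from 3.1 kb for VGF to 755.3 kb for RIMS2 in the GENCODE v29 annotation. Of the 41, 13 span under 30 kb, 12 from 30 to 100 kb and 16 over 100 kb, and the last group holds PCLO (408.9 kb), CADPS (477.0 kb), SYT1 (588.0 kb) and RAB3C (277.2 kb). Of members over 100 kb, 12 of 14 fell with ASO1 and 11 of 14 with ASO2 in IMR32, where 42.7% and 34.7% of all genes of that span fell. In NGP 12 of 13 fell with ASO2 and 11 of 13 with ASO10, against 49.8% and 47.8%. In SK-N-BE(2)c 10 of 10 fell with ASO2 and 7 of 10 with ASO10, against 61.4% and 55%.

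Members under 30 kb, such as VGF, SYT4 (9.8 kb), SV2A (14.6 kb) and SYPL1 (22.1 kb), fell in smaller number. Of 12 tested in each line, 0 fell with ASO1 and 2 with ASO2 in IMR32, 3 with each ASO in SK-N-BE(2)c and 2 with each ASO in NGP. Among all genes of that span, 5.85% and 7.72% fell in IMR32, 19.3% and 19.9% in NGP and 21.6% and 20.8% in SK-N-BE(2)c. The share of genes that fell thus moved with span among all genes as well as among the members, and the part of span in the members' falls was not tested. The one member over 100 kb that rose in any comparison was RPH3A (328.5 kb), with ASO2 in IMR32.

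**Figure D4:**
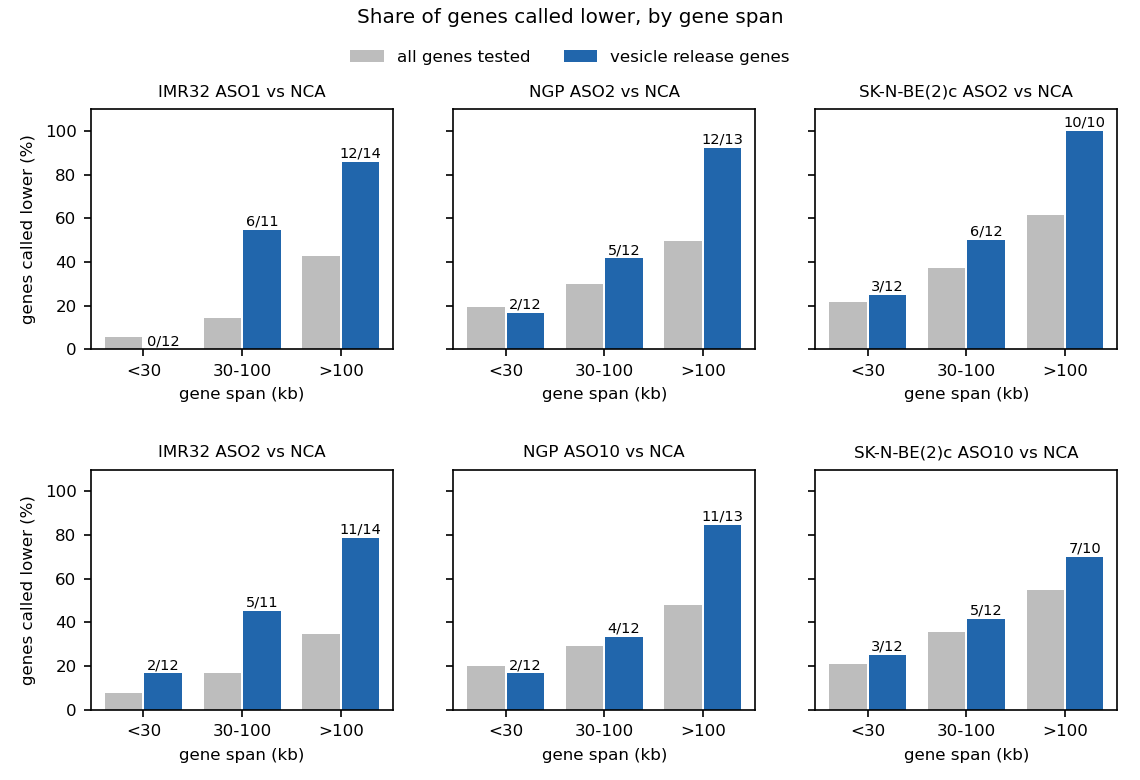
Percent of genes called lower than NCA by gene span (under 30 kb, 30 to 100 kb, over 100 kb) in the 6 comparisons, for the members and for all genes tested. In each comparison the percent among all genes is highest over 100 kb, and the members over 100 kb stand above all genes of that span.

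93 other genes of the pathway were counted in the same way, of which 68 were tested for SK-N-BE(2)c, 76 for NGP and 80 for IMR32. Their calls are given with the percent of these genes called and that of all genes. In IMR32 they counted 6 higher and 27 lower of 80 with ASO1 (7.5% and 33.8%, against 13.6% and 14.4%) and 10 higher and 33 lower of 80 with ASO2 (12.5% and 41.2%, against 17.6% and 14.8%). In NGP they counted 21 higher and 29 lower of 76 with ASO2 (27.6% and 38.2%, against 30.6% and 28.1%) and 15 higher and 37 lower of 76 with ASO10 (19.7% and 48.7%, against 26.8% and 27.6%). Counts in SK-N-BE(2)c were 16 higher and 34 lower of 68 with ASO2 (23.5% and 50%, against 33.6% and 33.4%) and 17 higher and 28 lower of 68 with ASO10 (25% and 41.2%, against 27.8% and 31.1%). The shares that rose with ASO2 in NGP and with ASO10 in SK-N-BE(2)c lay near those of all genes. NSF, the ATPase that takes apart used SNARE complexes, fell with ASO2, with fold changes of -1.42 (SE 0.068, adjusted p 2.8e-16) in SK-N-BE(2)c and -1.29 (SE 0.072, adjusted p 1.99e-13) in NGP. DNM2, the widely expressed dynamin, fell with ASO2, with fold changes of -1.25 (SE 0.066, adjusted p 2.84e-15) in SK-N-BE(2)c and -1.17 (SE 0.068, adjusted p 3.52e-13) in NGP. PAM, the enzyme that amidates peptide hormones, fell with ASO10, with fold changes of -1.22 (SE 0.10, adjusted p 7.88e-11) in SK-N-BE(2)c and -1.68 (SE 0.12, adjusted p 1.26e-11) in NGP.

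Some relatives of the members moved with them and others did not. VAMP7, a SNARE of lysosomal and granule fusion, was, with ASO10, -1.46 (adjusted p 1.38e-12) in SK-N-BE(2)c and -1.23 (adjusted p 2.72e-09) in NGP. CHGB, chromogranin B, rose with ASO1 in IMR32 by 0.70 (SE 0.046, adjusted p 1.4e-09) and in SK-N-BE(2)c with ASO2 by 0.43 (SE 0.051, adjusted p 2.14e-08). It was not called higher with ASO2 in IMR32 or with ASO10 in NGP or SK-N-BE(2)c. CACNA1B, the N-type calcium channel, fell with ASO2 in NGP (-1.18, adjusted p 1.29e-11), and ERC1, an active zone scaffold, fell with ASO2 in SK-N-BE(2)c (-1.22, adjusted p 8.62e-15). SCAMP1, a carrier membrane protein, fell with ASO10 in SK-N-BE(2)c (-1.33) and NGP (-0.85).

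Markers of the labelled cell type moved too. The 7 adrenergic neuroblast markers counted, HAND2 and GATA3 among them, were present in all lines and had a summed level of 29059.1 to 30346.5 with NCA, 25811.6 to 26750.7 with ASO2 and 21175.8 to 21718.1 with ASO10 in NGP. The sums were 17949.3 to 20075.5, 15962.2 to 17464.1 and 13731.0 to 14754.8 in SK-N-BE(2)c. In IMR32 they were 22472.0 to 23334.1 with NCA, 19671.6 to 21723.9 with ASO1 and 20764.8 to 22089.4 with ASO2. The NCA sums lay above the ASO sums in all 3 lines, with 3 and 2 of 7 markers lower with ASO1 and ASO2 in IMR32, 4 and 7 lower with ASO2 and ASO10 in NGP, and 4 and 6 in SK-N-BE(2)c. With ASO2, 1 of the 7 was higher in NGP and 3 were higher in SK-N-BE(2)c. Summed mesenchymal markers were at 9881.2 to 10030.2 with NCA, 13689.8 to 14605.0 with ASO2 and 11217.9 to 11911.6 with ASO10 in NGP, a sum carried mostly by VIM, vimentin, at a mean of 9135 with NCA. VIM rose with each ASO there (0.54 and 0.26), and FN1, fibronectin, fell with each (-0.34 and -0.74). The mesenchymal sums in SK-N-BE(2)c were 2744.9 to 2908.0, 3790.9 to 3868.4 and 3553.0 to 3798.9, and in IMR32 3152.1 to 3623.2 with NCA, 3352.7 to 3850.2 with ASO1 and 4226.2 to 4464.2 with ASO2. By gene the mesenchymal list did not move one way: with ASO2, 3 were higher and 1 lower of 4 tested in NGP, 2 higher and 1 lower of 4 in SK-N-BE(2)c, where CD44 fell (-1.13), and 3 higher and 0 lower of 6 in IMR32. With ASO10, 2 were higher and 1 lower of 4 in NGP, and 1 higher and 0 lower of 4 in SK-N-BE(2)c, while ASO1 had 1 higher and 0 lower of 6. Schwann cell markers summed to at most 99.9, endothelial markers to at most 79.4 and immune markers to at most 17.3 in any library, with CD3E at 0 throughout. The Schwann sum was 67.1 to 81.8 with ASO10 and 17.4 to 30.1 with NCA in NGP, with SOX10, its defining factor, at 0 in each NCA library. The part of these markers in the members' changes was not tested.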

How the data were processed

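RNA was sequenced from 30 libraries of 3 cell lines. Per the labels, libraries were made with a stranded total RNA kit or a stranded mRNA kit, and the kit of each library is not stated. The submitters' processing notes name FastQC 0.11.8, cutadapt 1.18, STAR 2.6.0, HTSeq 0.6.1 and DESeq2 1.42.0 and the builds hg19 and GRCh37, with no role given. The deposited tables hold normalized counts per gene, a signal that the authors scaled per library. Every value came back as a whole read within 0.02 when multiplied by the library's factor, in 100% of values. Rows naming no gene held 0.12% to 0.21% of IMR32 reads and were left out.

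The members and gene lists were chosen with earlier results of these data known. IDs were matched to symbols for 99.89% of IMR32 rows and 89.8% of the other rows. The target NESPR was not analysed here, so its knockdown is not reported. One gene of the adrenergic marker list is not reported here and was left out of its sums and counts. In SK-N-BE(2)c and NGP the control columns are spelled NCA for replicate 1 and NCA2 for replicates 2 and 3, and were taken as 1 group because the sample labels give 1 treatment.

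Genes with a mean of at least 10 were tested per line with limma 3.58.1 (R 4.3.3) on log2(value + 1), with a mean-variance trend and 1 mean per group, two-sided, and Benjamini-Hochberg adjustment over all genes tested. The effect of ASO2 between NGP and SK-N-BE(2)c came from 1 fit of both tables, which share their scale. The procedure was tested on simulated data. Values per library are given for the 3 called members with the largest rise and fall in each comparison with NCA, the 2 each way in other comparisons, and members called with ASO2 in all 3 lines; other members are given by fold change or count, and of the other pathway genes up to 2 per sub-list and line with the smallest adjusted p, of which some are named. Alternatives were pseudocounts of 0.5 and 5, no filter, a mean of at least 50, rescaling to the same total, edgeR 4.0.16 and DESeq2 1.42.0 on the recovered reads, a replicate block, and leaving out each library. Gene spans and exon lengths come from GENCODE v29 on GRCh38, used for lengths only, since the files were made on an older build.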

Additional observations from a re-analysis of the deposited data

Results flagged for a closer look

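For 8 of 34 members the ASO2 effect differed between SK-N-BE(2)c and NGP by the limma test of the difference. Of all 12637 genes tested, 10.5% differed in the higher and 9.37% in the lower direction. The log2 differences, SK-N-BE(2)c minus NGP, were 1.18 for SCG5, 0.97 for VGF and 0.51 for SYT4. They were -0.58 for SNAP25, -0.55 for AP3B2, -0.43 for RAB3A, -0.33 for UNC13B and -0.27 for UNC13A. With 1 library left out, the call of RAB3A was lost in 4 fits and that of UNC13A in 5.

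In 4 groups of IMR32 a single library stood apart from the other 3. RAB3C was at 434.4 in ASO1 replicate 1, where the others were at 362.6 to 368. SNAP91 was at 191.6 in the same library, where the others were at 156.4 to 162.1. PCLO was at 1074 in NCA replicate 1, where the others were at 1229 to 1252. VGF was at 666.7 in ASO2 replicate 2, where the others were at 556.1 to 558.8. The comparison covered 63 groups of 4 libraries, and chance alone flags such a library in about 5% of groups.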

How the results depend on the processing

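Of 1312 values of 88 named results under the alternatives, 1303 kept direction and side of the threshold and none reversed. The other 9 were the rise of SYPL1 with ASO1 in IMR32, at 0.22 to 0.27 with adjusted p from 0.0527 to 0.101. These are the results picked by the naming rule. For comparisons with NCA and the ASO2 effect between lines, calls of other members lost without a library stand beside their values. Between the ASOs of a line, further calls were lost when a library was left out. They were AP3B2, CADPS, SCG2, SV2C, SYNGR1 and SYT7 in IMR32, and RIMS2, SNAP25, SYT5 and SYT7 in NGP. In SK-N-BE(2)c they were PCLO, RPH3A, SYT11 and SYT7. Between the NCA libraries of NGP and SK-N-BE(2)c the call of SV2A was lost. On the recovered reads edgeR called, higher and lower over all genes, 2430 and 2467 with ASO1 and 2965 and 2665 with ASO2 in IMR32, 4318 and 4177 with ASO2 and 4070 and 3858 with ASO10 in NGP, and 4516 and 4564 with ASO2 and 4074 and 3999 with ASO10 in SK-N-BE(2)c. Of 332 recomputed counts of members, 316 stayed within 1.5 times the reported count.

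The replicate numbers were tried as a replicate block. Same-numbered libraries correlated at -0.006 to 0.33 in IMR32 and -0.065 to 0.12 in the other lines, and in no pair of groups were all correlations over 0.1, so the numbers were not taken to pair the samples. In IMR32, 2 or 3 of 4 libraries correlated best with the library of their own number in another group, against 0 to 2 of 3 in the other lines, and IMR32 replicate 1 was the lowest of its group in all 3 groups for PCLO, CADPS and SYN2. This is a hint from the data and not from the labels. With the block, calls over all genes in IMR32 moved from 2354 higher and 2496 lower to 3253 and 3356 with ASO1, from 3051 and 2556 to 4013 and 3406 with ASO2, and from 1588 and 2207 to 2404 and 3273 for ASO1 against ASO2. With the block, members counted 6 higher and 20 lower with ASO1, 6 and 21 with ASO2, and 7 and 11 for ASO1 against ASO2 in IMR32. In NGP the block gave 8 and 19 with ASO2 and 5 and 17 with ASO10, and in SK-N-BE(2)c 7 and 19 and 10 and 16.

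For ASO1 against ASO2 in IMR32, members higher were 7 after rescaling and 2 to 5 with 1 library left out, and members lower were 5 without a filter, 4 after rescaling and 5 to 8 with 1 library left out. Without ASO1 replicate 2 or 3 there were 2 higher and 5 lower, and without ASO1 replicate 4 or ASO2 replicate 4 there were 5 lower. For the ASO2 effect between lines, members lower were 3 without a filter, 9 after rescaling and 3 to 10 with 1 library left out. The cause of these moves was not tested. Counts at 3 or 4 libraries per group limit small fold changes, and members under a mean of 10 were not measured well enough to test.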
